A study of Mus musculus with 4 samples.

Results

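Chromatin accessibility at 38 imprinted genes was compared between mesenchymal stem cells of old and young mice, using 143 of the 117282 peaks of an ATAC-seq table. ATAC-seq inserts adapters into open DNA with a transposase, so that the number of fragments in a peak measures how open that stretch is. A peak was taken as a member where it overlapped a listed gene, as annotated in GENCODE vM21, or the 5 kb before its start. Of these peaks 29 touched the 1 kb around a start, 36 another exon, 70 only introns and 8 only the upstream stretch. Of all member peaks, 10 belonged to more than 1 listed gene. The genes were grouped into 18 imprinted domains, and 36 of them had at least 1 peak. Magel2, a paternally expressed gene of the Prader-Willi region, and Zdbf2, a paternally expressed zinc finger gene, had none. The old group comprised 2 samples from mice of 18 to 22 months, and the young group 2 samples from mice of 3 to 5 months. All 4 samples were cultured at 2% O2 in the same medium. Strain, sex and genotype were not stated, and nothing in the labels says how many mice each sample held.

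An imprinted gene is transcribed mainly from the copy inherited from one parent. The choice is written in the germ line as DNA methylation over a differentially methylated region, which often lies at the promoter of a paternally expressed gene or of a long noncoding RNA that silences its neighbours. ZFP57 binds a short methylated motif in such regions and protects the mark after fertilization, and YY1 binds repeated motifs in some of them. ATAC-seq counts reads of both parental copies together, so the values below hold no information on which copy was open.

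The sequences that the results turn on are printed here from the RefSeq copy of GRCm38, the assembly that mm10 names, in lower case and 5′ to 3′ on the strand of the gene. Capitals mark matches to the ZFP57 motif TGCCGC or the YY1 motif GCCATNTT on either strand. The first pair belongs to peaks that were lower in old cells. They are 300 bases of an intron of Peg3, inside the peak shared with Usp29 (chr7:6727672-6727971, minus strand), chosen as the exon-free stretch with the most YY1 letters. They are followed by the 250 bases before the start of Zim1 (chr7:6696451-6696700, minus strand).
Peg3 intron: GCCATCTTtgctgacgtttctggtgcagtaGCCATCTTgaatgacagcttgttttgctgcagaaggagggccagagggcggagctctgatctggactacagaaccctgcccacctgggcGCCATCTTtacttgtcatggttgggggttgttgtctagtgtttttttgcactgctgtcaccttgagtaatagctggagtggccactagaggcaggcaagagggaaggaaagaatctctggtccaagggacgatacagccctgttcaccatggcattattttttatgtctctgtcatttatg
Zim1 promoter: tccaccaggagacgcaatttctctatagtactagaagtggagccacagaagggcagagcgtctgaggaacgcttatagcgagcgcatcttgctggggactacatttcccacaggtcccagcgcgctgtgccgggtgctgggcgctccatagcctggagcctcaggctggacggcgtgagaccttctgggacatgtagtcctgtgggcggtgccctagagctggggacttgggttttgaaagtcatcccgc

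A second set shows promoters of paternally expressed genes that start within a germline differentially methylated region. Only promoters with ZFP57 letters are printed, and those without them are named below. It holds the 250 bases before a start of Snrpn (chr7:60005112-60005361, minus strand), Mest (chr6:30737800-30738049, plus strand), the internal transcript Inpp5f-203 (chr7:128688239-128688488, plus strand) and the retrogene Mcts2 (chr2:152686785-152687034, plus strand). It also holds the 185 bases before Nap1l5 (chr6:58907077-58907261, minus strand) and the 98 bases between the starts of Sgce and Peg10 (chr6:4747208-4747305, plus strand), cut where a neighbouring exon begins.
Snrpn promoter: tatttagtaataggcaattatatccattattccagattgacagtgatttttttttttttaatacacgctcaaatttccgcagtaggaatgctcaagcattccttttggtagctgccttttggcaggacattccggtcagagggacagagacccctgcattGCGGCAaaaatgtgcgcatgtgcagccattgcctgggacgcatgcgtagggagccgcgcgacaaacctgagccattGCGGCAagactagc
Mest promoter: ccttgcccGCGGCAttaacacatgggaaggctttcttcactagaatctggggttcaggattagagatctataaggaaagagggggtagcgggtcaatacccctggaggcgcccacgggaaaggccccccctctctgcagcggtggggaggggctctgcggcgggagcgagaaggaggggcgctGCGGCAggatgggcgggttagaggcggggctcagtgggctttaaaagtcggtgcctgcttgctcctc
Inpp5f-203 promoter: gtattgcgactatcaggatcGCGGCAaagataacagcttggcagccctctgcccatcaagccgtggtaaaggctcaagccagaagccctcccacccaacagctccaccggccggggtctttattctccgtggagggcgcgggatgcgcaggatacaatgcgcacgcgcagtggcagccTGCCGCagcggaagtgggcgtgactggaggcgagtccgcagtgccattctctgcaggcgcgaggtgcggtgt
Mcts2 promoter: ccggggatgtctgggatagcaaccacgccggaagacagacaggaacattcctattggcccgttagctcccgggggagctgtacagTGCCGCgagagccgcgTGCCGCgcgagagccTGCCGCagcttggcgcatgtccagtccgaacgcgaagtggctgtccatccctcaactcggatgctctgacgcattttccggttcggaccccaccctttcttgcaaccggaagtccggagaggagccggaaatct
Nap1l5 promoter: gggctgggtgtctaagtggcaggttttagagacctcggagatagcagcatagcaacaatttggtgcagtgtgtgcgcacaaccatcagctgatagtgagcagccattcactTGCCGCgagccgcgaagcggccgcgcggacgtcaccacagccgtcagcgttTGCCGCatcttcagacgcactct
Sgce-Peg10 interval: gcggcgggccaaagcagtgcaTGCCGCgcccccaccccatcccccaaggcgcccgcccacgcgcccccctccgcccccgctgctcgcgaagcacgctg

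The ZFP57 letters stood 3 times before Mcts2, 2 times each before Snrpn, Mest, Inpp5f-203 and Nap1l5, and 1 time between Sgce and Peg10. Among the 250 bases before each of 21938 protein-coding genes, 9.70% held them at least once. They did not occur in the Zim1 promoter or in the Peg3 stretch, which held 3 YY1 matches. Nor did they occur in the stretches, not printed, before starts of Nnat, Gnas, Peg3, Kcnq1ot1, Zrsr1, Grb10 and Airn. These were taken in the same way from the same list of genes at germline differentially methylated regions. For Grb10 the stretch lay before the main gene start. The peak over the internal Grb10-207 start, with 103 CpG per kb, held 4 ZFP57 matches. The 250 bases before Mcts2 held 24 CpG dinucleotides, against a median of 8 over all protein-coding genes.

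The same motifs were counted over whole peaks. The peak at the Snrpn-201 start, 1.5 kb wide, held 10 ZFP57 matches, and the Mest peak, 2.7 kb wide, held 12. The internal Inpp5f peak, 1 kb wide, held 6. None of the start peaks of protein-coding genes within 25% of their widths (2274, 4316 and 941 peaks) held as many. The shared Peg3 and Usp29 peak held 12 YY1 and 8 ZFP57 matches in 4.1 kb; of 3130 start peaks of similar width, 0% held as many YY1 and 0.383% as many ZFP57 matches. At least as many ZFP57 matches as the 5 in the Nap1l5 peak occurred in 0.261% of 383 peaks, and as many as the 8 in the Gnas peak around the Gnas-201 start in 0.328% of 3359. By contrast the wide Meg3 start peak held 1 ZFP57 match, a number reached by 93.9% of 165 peaks of its width. Over all start peaks chosen here, 23 of 28 held the ZFP57 letters (82.1%), beside 61.5% of 13099 start peaks of protein-coding genes. A long form of the NRF1 motif occurred in the peaks at Zrsr1 and at Meg3. These are matches of letters and show neither binding nor methylation.

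**Figure D1:**
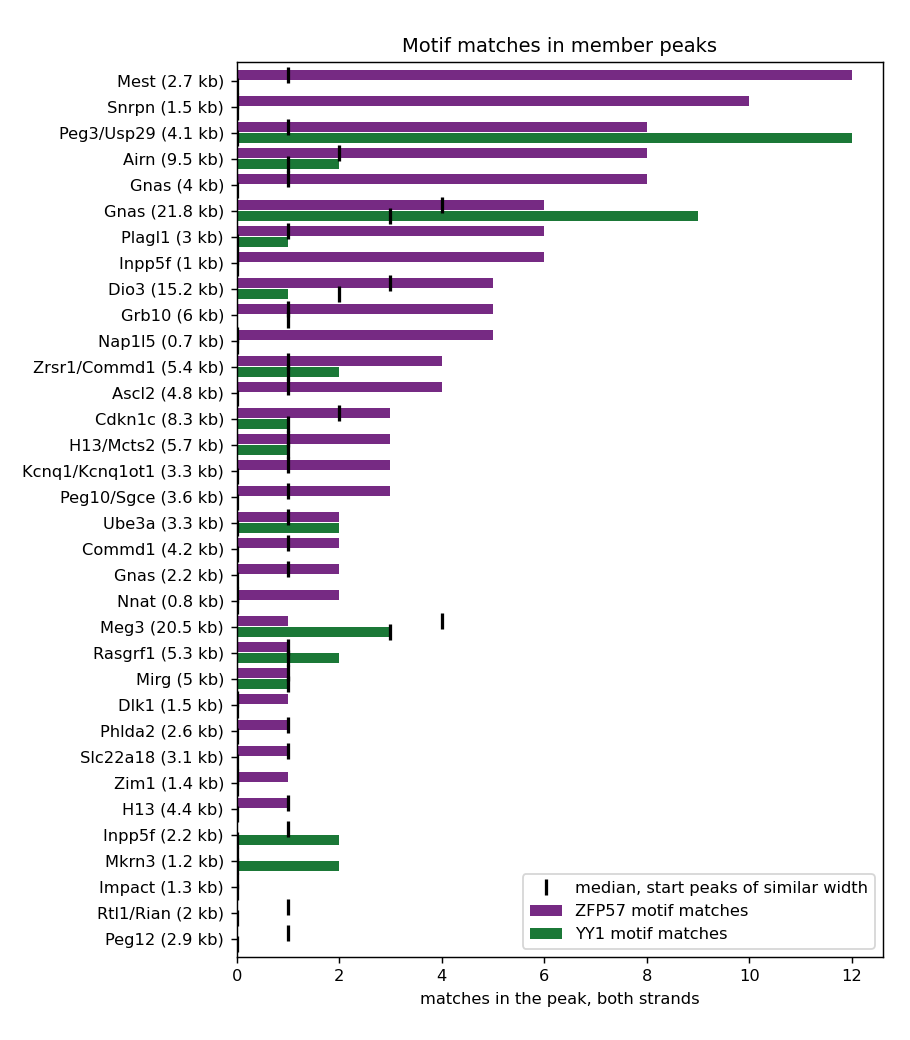
Bars give the number of ZFP57 and YY1 motif matches on both strands (horizontal axis) in start peaks of imprinted genes and in other peaks with at least 6 ZFP57 matches, with peak width in parentheses. Black ticks give the median over start peaks of protein-coding genes within 25% of that width. Mest, with 12 ZFP57 matches, and the Peg3/Usp29 peak, with 12 YY1 matches, stand far from their ticks.

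The libraries held 12527509 to 18493628 counts in peaks, of which 18109 to 26546 lay in member peaks. Each value is a deposited score divided by the sample's RLE factor, a median-ratio scale that sets the typical peak equal between samples, and values were set side by side per kb of peak when peaks were compared. The share of peak signal on the mitochondrial genome was 13.5% to 15.7% in 3 samples and 6.52% in old replicate 2. On chromosome 11, which carries Grb10, Zrsr1 and Commd1, the median peak of old replicate 2 lay 0.17 log2 above its autosomal level. Over all peaks the samples correlated with r of 0.971 between young and 0.955 between old replicates. Of the marker genes, all 9 of mesenchymal stem cells had a start peak, as did 2 of 3 endothelial markers (Pecam1 and Tek) and 1 of 2 epithelial markers (Epcam). Cdh5 of endothelium and Cdh1 of epithelium had none. The summed endothelial values were 34.4 and 37.5 in old and 52.8 and 57.7 in young samples. Within that sum Tek had 27.1 and 28.1 against 50.1 and 43.0, while Pecam1 overlapped, with 7.32 and 9.45 against 7.63 and 9.79. The Epcam values were 6.45 and 9.76 in old and 9.62 and 10.7 in young, with overlap. The summed mesenchymal values ranged from 2071 to 2696 in old and from 2092 to 2116 in young samples. Pdgfra (357 and 424 against 344 and 296) and Pdgfrb (427 and 494 against 414 and 410) were higher in old without overlap. So was Nt5e (92.1 and 121 against 84.6 and 73.3), and the other mesenchymal start peaks overlapped. Of 38 peaks of these genes, 17 had both old samples above both young (44.7%) and 3 below (7.89%). Over all peaks these shares were 23.2% and 24.2%. In such bulk samples a change in the share of cells with an open site and a change in openness per cell cannot be told apart. The part of these markers in the results was not tested.

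Across the imprinted genes as a whole, old and young cells were close. The limma test, adjusted over all peaks, called 1 member peak lower in old cells at an adjusted p under 0.01, beside 0.0307% of all peaks. It called 0 higher, beside 0.0256% of all peaks. At an unadjusted p under 0.05, 10 member peaks were lower (6.99%) and 7 higher (4.90%), beside 8.87% and 7.49% of all peaks. A limma-voom fit on recovered counts, added after the data had been seen, called 2 lower and 0 higher at an adjusted p under 0.01, beside 0.081% and 0.0418% of all peaks. At 0.05 it called 3 lower and 0 higher, beside 0.904% and 0.472%. By limma at an adjusted p under 0.05 there were 4 lower, or 2.80% of the members, beside 0.771% of all peaks, and again 0 higher, beside 0.351%. Both old samples lay below both young samples in 33 member peaks, 23.1% of them, beside 24.2% of all peaks. They lay above in 29, or 20.3%, beside 23.2%. In the remaining 81 the groups overlapped. The counts at an adjusted p under 0.01 moved with the samples fitted, over all peaks as over the members. Without old replicate 1 there were 10 lower and 1 higher, beside 5.45% and 3.35% of all peaks. Without old replicate 2 there were 4 and 0, beside 1.05% and 0.393%. Without young replicate 1 there were 0 and 0, beside 0.00171% and 0.00682%, and without young replicate 2 also 0 and 0, beside 0% and 0.0102%. The median log2 fold change, old minus young, was 0.0526 over the members and 0.00109 over all peaks, and 46.2% of the members were lower in old, beside 49.9% of all peaks. The zero of these changes is set by the scaling: on values as deposited the median was -0.23 for the members and -0.27 for all peaks, and 13 of the 28 start peaks described below changed sign. Nothing in the labels says that the samples of a group came from separate cultures or animals, so the p-values measure the spread between these samples, which may be technical.

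The peaks fell unevenly over the domains. The Kcnq1 domain held 32, of which 11 had both old samples above both young and 3 below. Grb10 held 16, with 8 below and 0 above, and Airn 17, with 1 below and 4 above. In the Peg3 domain 3 of 7 lay below and 0 above, in the Prader-Willi and Angelman region 3 of 5 below and 0 above, and at Inpp5f 3 of 5 below and 1 above. Dlk1-Dio3 had 14 peaks with 0 below and 2 above. Peg10 held 10, with 3 below and 3 above, and Gnas 8, with 2 below and 3 above. H13 held 7, with 1 below and 0 above, and Zrsr1 6, with 2 below and 1 above. Rasgrf1 held 5, with 0 below and 2 above, and Plagl1 4, with 2 below and 1 above. The remaining domains held fewer peaks. Beside these counts, 24.2% of all peaks had both old samples below both young and 23.2% had them above. With so few peaks a domain, the counts are given as description and were not tested. Peaks of a domain share genes and samples and are not replicates.

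**Figure D2:**
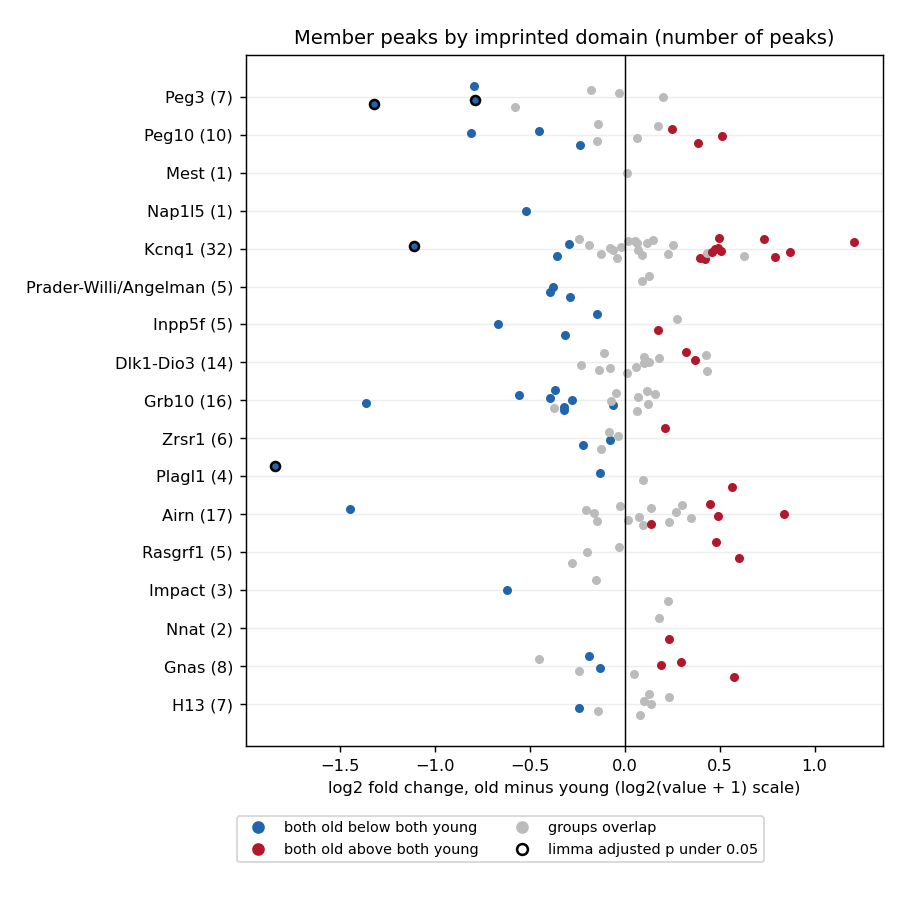
Each point is a member peak, placed by its log2 fold change (old minus young, on log2(value + 1)) in the row of its imprinted domain, with the number of peaks in parentheses. Blue points have both old samples below both young, red points both above, grey points overlap, and the 4 ringed points passed an adjusted p of 0.05. All ringed points lie to the left of 0, in the Peg3, Kcnq1 and Plagl1 domains.

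The Peg3 domain on chromosome 7 held the clearest difference. Peg3 and Usp29 are paternally expressed and start back to back, 146 bases apart, within the differentially methylated region. Peg3 encodes a large zinc finger protein, Usp29 a ubiquitin-specific protease. Their shared start peak (chr7:6726801-6730900), which holds the YY1 repeats printed above, had values of 347.7 and 260.1 in the old and 493.0 and 547.3 in the young samples. Both old samples thus lay well below both young samples. The group means were 304 ± 61.9 in old and 520 ± 38.4 in young (SD, n = 2 each), a 1.71-fold difference. The log2 fold change was -0.79 (SE 0.14), with an adjusted p of 0.016 by limma. That adjusted p ranged from 0.00057 to 0.217 over the alternatives that kept all 4 samples. The adjusted p stayed under 0.05 without either old replicate and rose above it without either young replicate, which ended the call. Calls over all peaks also fell in number without a young replicate. Such a fit holds 1 sample in 1 group. Its p-value therefore rests on the spread of the other group and on the shared variance model. At 100 units per kb this was the most accessible of the start peaks of imprinted genes, above 99.8% of all peaks by that measure.

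Zim1, a maternally expressed zinc finger gene next to Peg3, carried the one peak past the 0.01 threshold. Its start peak (chr7:6695801-6697200), 1.4 kb wide, had values of 34.0 and 29.9 in old and 89.9 and 73.0 in young samples, from 79, 98, 271 and 246 counts. The groups were far apart, with means of 31.9 ± 2.90 in old and 81.5 ± 11.9 in young (SD, n = 2 each), 2.55-fold higher in young. The log2 fold change was -1.32 (SE 0.21) and the adjusted p 0.0096 by limma, close to the threshold, with a range from 7.4e-05 to 0.0994 over the alternatives that kept all 4 samples. The adjusted p stayed under 0.01 without either old replicate and rose above it without either young replicate, which ended the call. The limit given above for fits with 1 sample in a group holds here too. A second Zim1 peak, 7.6 kb inside the gene, had 6.45 and 4.27 in old and 6.30 and 10.98 in young, and its groups overlapped. The 4 intronic Usp29 peaks lay 184 to 210 kb from its start and were weak. In 3 of them the groups overlapped, and in the last the values were 7.32 and 3.96 in old and 8.62 and 11.9 in young.

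Summed over its 7 peaks the Peg3 domain reached 426 and 318 in old and 624 and 668 in young samples. Of this, 80.9% came from the shared Peg3 and Usp29 peak. The exact two-sided permutation test gave p = 0.333, the smallest that 2 against 2 samples allow, and 0.872 after adjustment over 17 domains. Domain sums could therefore not pass a threshold, and they are given as values. Both old sums were below both young sums in 4 domains (Peg3, Nap1l5, Prader-Willi and Angelman, and Inpp5f), above in 1 (Kcnq1), and the groups overlapped in 12.

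**Figure D3:**
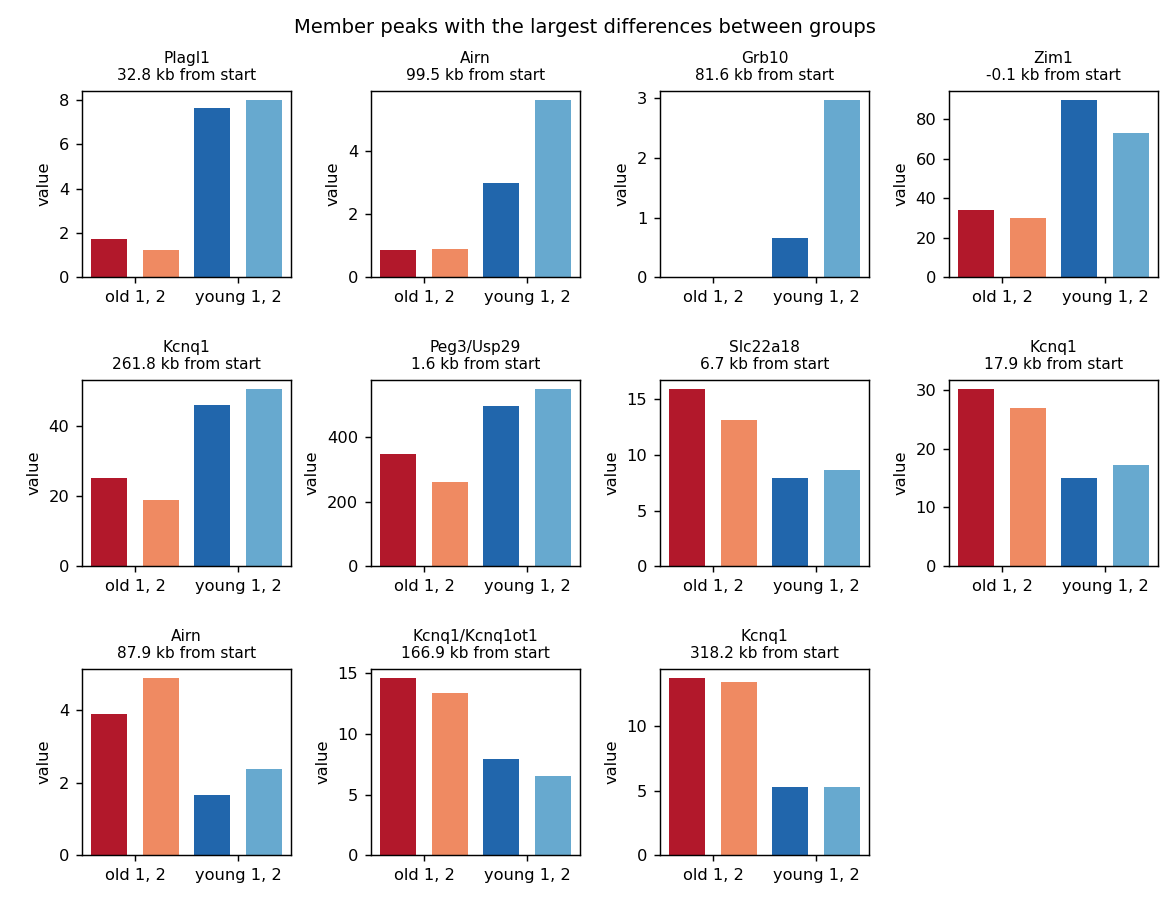
Bars show the value in old replicates 1 and 2 (red, orange) and young replicates 1 and 2 (blue, light blue) for the 11 member peaks with the largest differences, each on its own linear axis from 0. Titles give the gene and the distance of the peak centre from the gene start. Zim1 falls from 89.9 and 73.0 in young to 34.0 and 29.9 in old, and the Plagl1, Airn and Grb10 peaks of the first row rest on values under 10.

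The Kcnq1 domain, also on chromosome 7, is governed by Kcnq1ot1, a paternally transcribed noncoding RNA that starts inside the Kcnq1 gene and silences the maternally expressed genes around it. Its start peak had values of 124.8 and 115.6 in old and 116.8 and 111.6 in young samples (log2 fold change 0.07, SE 0.16, adjusted p 0.87 by limma). The groups overlapped at the promoter of the silencing RNA, and on values as deposited the log2 fold change was -0.21. The potassium channel gene Kcnq1 itself had 24 peaks, and none touched the 1 kb around its annotated start.

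One intronic Kcnq1 peak, 262 kb from the gene start, was lower in old cells. Its values were 25.4 and 18.9 in old and 46.1 and 50.8 in young samples, from 59, 62, 139 and 171 counts. Means were 22.2 ± 4.58 and 48.4 ± 3.28 (SD, n = 2 each), 2.19-fold higher in young. The log2 fold change was -1.11 (SE 0.23) and the adjusted p 0.031 by limma, with a range from 0.0031 to 0.13 over the alternatives that kept all 4 samples. The adjusted p stayed under 0.05 without either old replicate. Without either young replicate it was again past 0.05, and the same limit of these fits holds.

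Of the 5 largest increases without overlap among the members, 4 also lay in this domain and 1 in Airn, and none passed the test. An intronic peak 318 kb from the Kcnq1 start had 13.8 and 13.4 in old and 5.31 and 5.34 in young samples (log2 fold change 1.21, SE 0.32, adjusted p 0.066 by limma). A peak in the Kcnq1ot1 transcript, 167 kb from the Kcnq1 start, had 14.6 and 13.4 in old and 7.96 and 6.53 in young (0.87, SE 0.31, adjusted p 0.16). Another intronic peak, 17.9 kb from the Kcnq1 start, had 30.1 and 26.8 against 14.9 and 17.2 (0.79, SE 0.25, adjusted p 0.12). An exonic peak of Slc22a18, an organic cation transporter gene, had 15.9 and 13.1 in old and 7.96 and 8.61 in young (0.74, SE 0.30, adjusted p 0.23). In each of these peaks the groups did not overlap, and in the first the spread within each group was small, on 16 to 44 counts a sample.

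Start peaks of the maternally expressed genes of the domain showed little difference. Cdkn1c, a cyclin-dependent kinase inhibitor, had 128 and 120 in old and 131 and 110 in young samples. Phlda2, a regulator of placental growth, had 24.1 and 38.1 against 37.5 and 34.7, and Slc22a18 28.8 and 26.2 against 28.2 and 21.7. All 3 overlapped between the groups. Ascl2, a basic helix-loop-helix factor, had 67.1 and 61.6 in old and 50.4 and 45.1 in young samples, without overlap (log2 fold change 0.42, SE 0.20, adjusted p 0.30 by limma). Summed over the domain, the old samples reached 1032 and 1033 and the young samples 991 and 916.

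**Figure D4:**
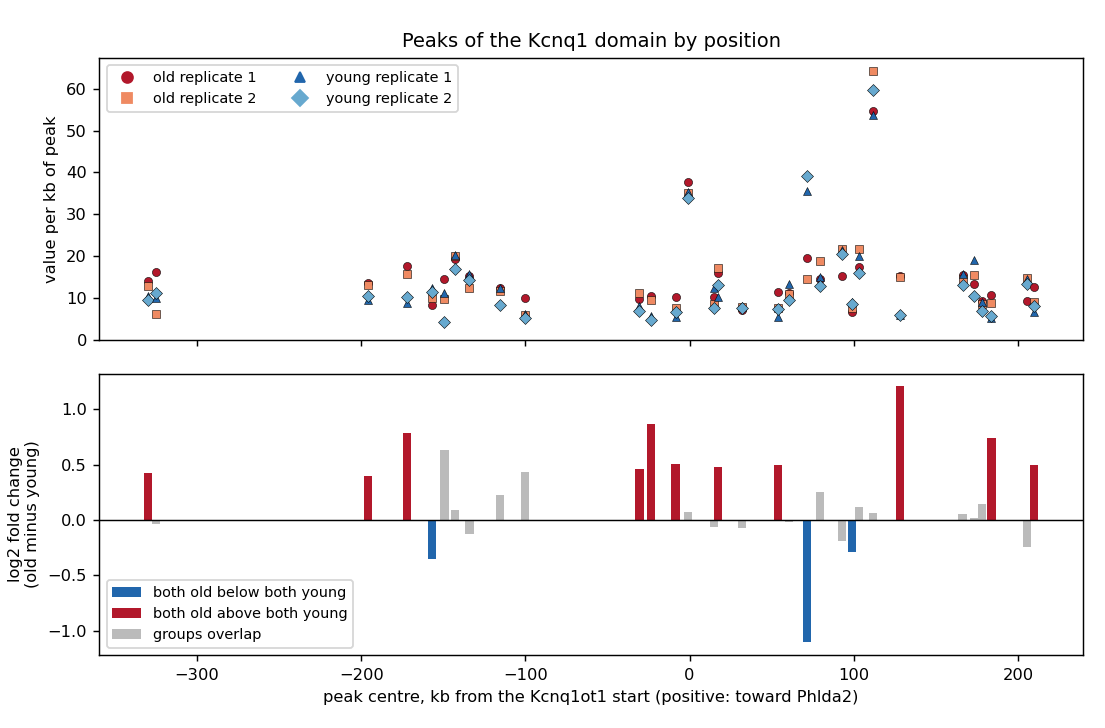
The upper panel gives the value per kb of each of the 32 peaks of the Kcnq1 domain in each sample, by distance of the peak centre from the Kcnq1ot1 start in kb. The lower panel gives their log2 fold change, old minus young, in blue or red where the groups do not overlap. The Kcnq1ot1 start peak at 0 has a change of 0.07, and the one peak below -1 lies in an intron of Kcnq1.

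In the Prader-Willi and Angelman region, Ube3a, a ubiquitin ligase that is imprinted in neurons, had the strongest peak. Its start peak held 281 and 258 in old and 334 and 323 in young samples (log2 fold change -0.29, SE 0.13, adjusted p 0.28 by limma). Snrpn encodes a splicing protein, and its Snrpn-201 start, where Snurf also starts, lies at the differentially methylated region. That peak was weak at 18.9 and 20.1 in old and 25.9 and 26.1 in young (-0.40, SE 0.24, adjusted p 0.44). The peak in Ndn, the gene of necdin, stood at 22.8 and 20.1 against 27.2 and 29.1 (-0.38, SE 0.24, adjusted p 0.46). In these 3 peaks both old samples lay below both young, and none passed the test. Mkrn3, a ring finger gene, and Peg12, whose product relates to the FRAT proteins, had start peaks in which the groups overlapped, with 16.4 and 10.98 against 14.3 and 10.98 and with 93.8 and 77.8 against 74.6 and 81.6.

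Inpp5f is an inositol polyphosphate phosphatase gene, and the imprinted, paternally expressed form is a shorter internal transcript, here Inpp5f-203. The peak at the main start held 179 and 146 in old and 202 and 200.3 in young samples (log2 fold change -0.31, SE 0.15, adjusted p 0.32 by limma). The internal start peak held 12.5 and 13.4 against 13.3 and 8.31, with overlap. An exonic peak between them, 61.1 kb from the main start, held 63.7 and 80.5 in old and 123 and 107 in young (-0.67, SE 0.18, adjusted p 0.077). It was named after its value had been seen.

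The Dlk1-Dio3 domain on chromosome 12 was covered by a few very wide peaks. Dlk1, Rtl1 and Dio3 are its paternally expressed coding genes, and Meg3, Rian and Mirg its maternally expressed noncoding RNAs. The Meg3 start peak was 20.5 kb wide and held 273 and 229 in old and 279 and 271 in young samples. Another, 21.3 kb wide over Rtl1 and many microRNA genes, held 206 and 187 in old and 188 and 188 in young. Both overlapped between the groups. Wide peaks were common among the imprinted genes, with 10 of 143 (6.99%) at least 8 kb wide, beside 1.56% of all peaks.

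At the starts of its coding genes, Dlk1, which encodes a transmembrane ligand related to Delta, had 19.8 and 24.4 in old and 20.6 and 12.5 in young samples. The peak between the Rtl1 and Rian starts, within 1 kb of each, had 21.9 and 11.9 against 16.6 and 13.7. That within 1 kb of the Mirg start had 34.0 and 29.6 against 30.5 and 28.5. Neither peak covered a start of these genes. The groups of Dlk1 and of Rtl1 and Rian overlapped, as did those of Mirg. Dio3 encodes the deiodinase that inactivates thyroid hormone. Its 15.2 kb peak held 211 and 235 in old and 182 and 174 in young (log2 fold change 0.32, SE 0.14, adjusted p 0.28 by limma), without overlap. The domain summed to 1241 and 1180 in old and 1189 and 1138 in young samples.

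Plagl1, a paternally expressed zinc finger factor, had its differentially methylated start in a 3 kb peak with 44.8 and 53.1 in old and 53.1 and 53.7 in young samples. Next to it, an intronic peak of 0.6 kb (chr10:13093001-13093600) held 1.72 and 1.22 in old and 7.63 and 8.01 in young. It begins at the base after the 3 kb peak ends, so the 2 form one unbroken stretch. How the border between them was drawn is not given in the sources used here. Whether it was drawn from these same values was not tested. It rested on 4 counts in each old sample and on 23 and 27 in the young samples. The log2 fold change on the log2(value + 1) scale was -1.84 (SE 0.41) and the adjusted p 0.037 by limma, with a range from 0.0048 to 0.0845 over the alternatives that kept all 4 samples. The adjusted p stayed under 0.05 without either old replicate. This call too was lost without either young replicate, and the same limit of these fits holds. This was the largest change among the 4, at the lowest level.

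Grb10, an adaptor of growth factor receptors, had 16 peaks on chromosome 11. Its start peak held 107 and 79.6 in old and 112 and 127 in young samples (log2 fold change -0.37, SE 0.18, adjusted p 0.33 by limma). The peak with the most CpG of all members, 103 per kb, covered the internal Grb10-207 start and held 38.7 and 26.8 against 33.5 and 33.2. A peak of 0.1 kb, 81.6 kb from the start, had 0 counts in both old samples and 2 and 10 in the young samples, too few for a fold change. It abutted another peak on each side without a gap. Zrsr1, a paternally expressed retrogene in an intron of the copper metabolism gene Commd1, had 82.6 and 99.4 in old and 90.9 and 94.7 in young samples. The Commd1 start peak had 88.2 and 116 against 99.5 and 115. The groups overlapped in both, and old replicate 2, which was shifted upward along this chromosome, was the highest sample in each. Zrsr1 and Mcts2 are retrogenes with a parent gene elsewhere, and how reads fitting both places were handled is not given in the sources used here.

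Airn, the paternally expressed noncoding RNA that silences Igf2r, starts in a peak 9.5 kb wide. It held 231 and 211 in old and 219 and 194 in young samples (log2 fold change 0.10, SE 0.14, adjusted p 0.79 by limma). Over its 17 peaks the old sums were 1084 and 996 and the young sums 999.5 and 967. The named peaks at the ends of its range were weak. That 99.5 kb from the start had 2 and 3 counts in old and 9 and 19 in young samples, and abutted another peak on each side. That 87.9 kb from the start had values of 3.87 and 4.88 in old and 1.66 and 2.37 in young (0.84, SE 0.43, adjusted p 0.34).

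Of the genes on chromosome 6, the shared start peak of Peg10, derived from a retrotransposon, and Sgce, the gene of epsilon-sarcoglycan, held 120 and 111 in old and 116 and 141 in young samples. Mest, a paternally expressed hydrolase gene, had no peak within 1 kb of the annotated gene start. Its single peak, at the shorter transcripts, held 48.2 and 41.8 in old and 43.5 and 45.4 in young (log2 fold change 0.01, SE 0.21, adjusted p 0.98 by limma), with the groups interleaved. Nap1l5, a nucleosome assembly protein gene in an intron of Herc3, had 6.02 and 9.76 in old and 12.3 and 10.7 in young samples (-0.52, SE 0.33, adjusted p 0.45).

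On chromosome 2, Gnas, which encodes the stimulatory G protein alpha subunit and several other products from separate promoters, carried the member peak with the highest value. This 21.8 kb peak over the Gnas-202 start held 682 and 543 in old and 697 and 690.0 in young samples. Its first start, that of the neuroendocrine secretory protein, held 29.7 and 26.2 against 30.2 and 24.04. The start peak of H13, a signal peptide peptidase gene, held 96.8 and 120 against 105 and 98.2, and that of Mcts2, the retrogene inside it, 152 and 177 against 155 and 143. Nnat, the gene of neuronatin, had 21.1 and 25.6 against 26.9 and 15.4. The groups overlapped in all of these but the widest Gnas peak, whose log2 fold change was -0.19 (SE 0.12, adjusted p 0.45 by limma).

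Of the remaining genes, Rasgrf1, a Ras exchange factor, had a start peak with 161 and 113 in old and 170 and 158 in young samples. That of Impact, a regulator of the GCN2 kinase, had 32.3 and 44.2 against 30.5 and 33.8. A stronger Impact peak, over the Impact-201 start 17.4 kb inside the gene, had 138 and 199 in old and 186 and 183 in young samples. Its groups overlapped, with a log2 fold change of -0.15 (SE 0.17, adjusted p 0.70 by limma). At 58.8 units per kb it is not among the start peaks ranked below, which touch the 1 kb around a gene start. Old replicate 2 was the lowest of the 4 samples at Rasgrf1 and the highest in both Impact peaks.

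Set per kb of peak, start peaks of imprinted genes had a lower median than those of protein-coding genes in general, a difference that was not tested. The median was 20.1 units per kb over 28 peaks, beside 30.0 over the 13099 start peaks of protein-coding genes, and 6 of the 28 exceeded that median. In order, these 6 were Peg3 and Usp29 (100), Ube3a (90.6), Inpp5f (82.6), Zim1 (40.5), Kcnq1ot1 (35.5), and Peg10 with Sgce (33.9). The samples of neighbours in this order overlapped, except those of Inpp5f and Zim1. At the other end stood the peak near the Mirg start at 6.13 and that between the Rtl1 and Rian starts at 8.01. Both lay within 1 kb of these starts without covering them. CpG content did not mark them out, with medians of 35.9 CpG per kb in the 28 peaks and 34.5 in the start peaks of protein-coding genes. Among the 28, 6 had both old samples below both young and 2 above, beside 24.2% and 23.2% of all peaks.

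**Figure D5:**
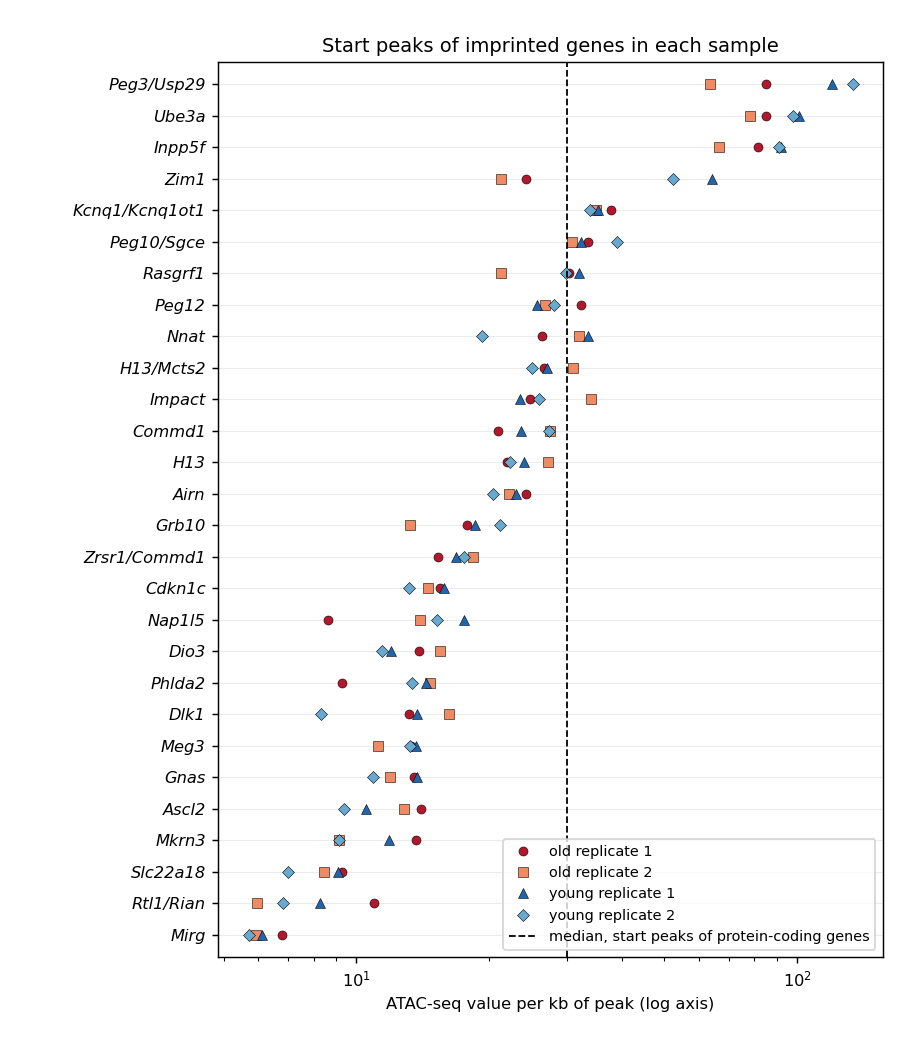
Points give the value per kb of peak (log axis) in each of the 4 samples for the 28 start peaks of imprinted genes, ordered by their mean. The dashed line is the median, 30.0, over start peaks of protein-coding genes. Old samples of Peg3/Usp29 and of Zim1 lie well to the left of the young samples, while most other rows overlap.

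Other genes of the pathway were counted from fixed lists. Of 32 further imprinted genes, 28 had peaks, 162 in all outside the members. Of these, 0 passed an adjusted p of 0.05 by limma or limma-voom in either direction. Over all peaks limma called 0.771% lower and 0.351% higher at that threshold. At an unadjusted p under 0.05, 18 were lower (11.1%) and 10 higher (6.17%), beside the 8.87% and 7.49% of all peaks. In 43 of the 162 both old samples lay below both young (26.5%) and in 30 above (18.5%), beside 24.2% and 23.2% of all peaks. Their median log2 fold change was -0.0313. All 16 regulators of imprints, among them Zfp57, Trim28, Dnmt1 and the Tet genes, had peaks, 66 in all. A single one passed an adjusted p of 0.05 by limma, higher in old, beside 0.351% of all peaks. It lay in an intron of Arid4a, which encodes a chromatin protein linked to the Prader-Willi imprint, and held 23.2 and 36.0 in old and 8.29 and 11.6 in young samples (log2 fold change 1.47, SE 0.29, adjusted p 0.023 by limma).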

How the data were processed

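Members and gene lists were chosen with earlier results of these data known. The authors deposited 1 table of peak values for the 4 samples, named RPKM. In every sample 100% of these deposited scores were whole multiples of 1 step (tolerance 0.001), in narrow and wide peaks alike, so they were treated as scores scaled to the library and not divided by peak width. Per the labels' processing notes, Bowtie2, Picard and mm10 were used; the peak caller is not given in the sources used here. Scores were divided by RLE factors (0.813, 1.01, 1.07 and 1.15) and tested as log2(value + 1) with limma 3.58.1 in R 4.3.3 (trended, robust moderation), adjusted by Benjamini-Hochberg over 117282 peaks at 0.01. The fit was tested on simulated data first. Exact permutation tests of 2 against 2 samples cannot go below p = 0.333. In each sample, 3 counts equal a deposited value of 0.921 to 1.06, and only counting error follows from depth. Named peaks were those touching the 1 kb around each gene start, those under an adjusted p of 0.05, and the 5 largest non-overlapping changes in each direction. Where several touched the 1 kb around a start, the one with the highest mean value was taken. A list of markers and a sequence are not reported here. Tables and figures used Python 3.11.15, numpy 2.4.6, pandas 2.3.3 and matplotlib 3.10.9.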

Additional observations from a re-analysis of the deposited data

How the results depend on the processing

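With 2 samples a group, a call at a single peak rests on the shared variance model and on each library. The count of 1 member peak lower in old at an adjusted p under 0.01 stood beside 36 of all 117282 peaks. It became 0 with equal total signal and with only peaks at or above the lower quartile, beside 28 and 7 of all peaks. It was also 0 with plain variance moderation and with a pseudocount of 0.1, beside 0 and 11. It became 4 on values as deposited and at an adjusted p under 0.05, beside 1333 and 904 of all peaks. With limma-voom on recovered counts, which was chosen after seeing the data, it was 2, beside 95. The count thus moved with the whole table. With a replicate block the member count was 4, beside 907 of all peaks. Same-numbered samples did not deviate together over all peaks (correlation -0.0993). Whether they shared a preparation was not tested, and this correlation cannot decide it. Leaving out 1 sample gave 0 to 10 lower and 0 to 1 higher. The peaks with both old samples below both young numbered 33; this was 62 on values as deposited, 6 within 1 kb of a start, and 42 to 56 without 1 sample. Those above numbered 29; this was 11 on values as deposited, 2 within 1 kb of a start, and 39 to 60 without 1 sample. On values as deposited all peaks shifted alike: 43.5% of them lay below and 7.56% above, beside 43.4% and 7.69% of the members, the members' median was -0.23 and 78.3% of them were lower in old. Without 1 sample, 2 samples face 1, so that an absence of overlap is reached more easily by construction. Within 1 kb of a start, only the peaks that touch the 1 kb around a start are counted. These counts therefore cannot be set against those of the main setting. The cause of the remaining differences was not tested.

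The log2 ratio of domain sums changed sign on values as deposited at Airn (-0.21), Dlk1-Dio3 (-0.23), H13 (-0.21), Kcnq1 (-0.17), Mest (-0.28), Nnat (-0.0673) and Peg10 (-0.26). It changed sign within 1 kb of a start at Gnas (0.0442), Impact (0.25) and Peg10 (-0.15), and at or above the lower quartile at Plagl1 (0.0096). Without 1 sample it ranged from -0.0671 to 0.14 at Peg10, from -0.0889 to 0.12 at Mest, from -0.20 to 0.0554 at Zrsr1, from -0.24 to 0.0128 at Plagl1, from -0.41 to 0.0353 at Rasgrf1, from -0.36 to 0.14 at Impact, from -0.00793 to 0.45 at Nnat and from -0.0754 to 0.18 at H13. With plain variance moderation 0 of all peaks passed 0.01. The 4 peaks called at 0.05 and the 5 largest non-overlapping changes in each direction kept their sign in every alternative run. In all of these the groups do not overlap, so leaving out 1 sample could not reverse the sign. Since the peaks were chosen by their change, this says little about their stability.

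Start peaks were not chosen by their change, so they cannot be set against those peaks. Among them, 13 of 28 changed sign on values as deposited. These were H13 (-0.21), Mcts2 (-0.15), Nnat (-0.0947), the first Gnas start (-0.23), Mkrn3 (-0.18), Peg12 (-0.16), Kcnq1ot1 (-0.21), Cdkn1c (-0.23), Slc22a18 (-0.13), Rtl1 and Rian (-0.17), Mirg (-0.18), Airn (-0.19) and Impact (-0.0530), as did the Mest peak (-0.27). Without 1 sample the log2 fold change ranged from -0.0717 to 0.23 at H13, -0.20 to 0.56 at Nnat, -0.11 to 0.21 at the first Gnas start, -0.0865 to 0.12 at Mest, -0.18 to 0.36 at Mkrn3, -0.00528 to 0.26 at Peg12, -0.0336 to 0.58 at Inpp5f-203, -0.0757 to 0.18 at Cdkn1c, -0.0350 to 0.33 at Slc22a18, -0.56 to 0.0773 at Phlda2, -0.17 to 0.0988 at Zrsr1, -0.27 to 0.11 at Commd1 and -0.32 to 0.52 at Rtl1 and Rian. None of these peaks was called. The other alternatives changed the sign of 0 start peaks.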
